A study of Homo sapiens with 6 samples.

Results

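The MAF transcription factor genes MAF, MAFA, MAFF, MAFG and MAFK were followed in PC9 cells, a human lung adenocarcinoma line, after an antagomir against tsRNA-5001a (knockdown) or a negative control antagomir. These 5 genes of the 58174 in the deposited table were chosen by gene name, with the fold changes between these same libraries already known. Their own values are therefore given as a description, with no test. Antagomirs are modified antisense oligonucleotides that block small RNAs, and tsRNA-5001a is a fragment of a transfer RNA, which gene counts do not measure. Each group had 3 libraries of 32342017 to 40066223 gene counts. All libraries came from the same cell line. The labels do not name separate cultures, so the p-values below reflect library-to-library spread alone, which could be technical. In bulk samples such as these, fewer cells that make a transcript and less transcript per cell cannot be told apart.

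MAF proteins are basic leucine zipper factors that bind DNA as dimers. The large ones, among them MAF and MAFA, carry a domain that activates transcription. The small ones, MAFF, MAFG and MAFK, lack that domain: on their own they act as repressors, and they activate or repress antioxidant, iron and detoxification genes as partners of the cap-n-collar (CNC) factors, such as NFE2L2 (NRF2), or of the BACH repressors. NFE2L2 bound to a small MAF protein at antioxidant response elements is well known in lung cancer cells.

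Large and small MAF genes stood at different levels. All 3 small MAF genes were well expressed in every library and lay between 1.14-fold and 1.21-fold above the control after knockdown. MAFA was near the detection limit in the control and 7.99-fold above it after knockdown, while MAF was close to 0 in both groups. Of the 19040 genes that passed the filter on low counts, edgeR's quasi-likelihood test called 223 (1.17%) at a Benjamini-Hochberg adjusted p of 0.05, and 209 (1.1%) were called higher; with any 1 library left out, 64 to 114 genes were called. At an unadjusted p under 0.05 edgeR had 16.5% of all tested genes. DESeq2 called 3.69% of those to which it gave an adjusted p, and limma-voom called 220 of the 19040. Counts of these kinds below are to be read against these shares. MAFA was 1 of the 223 genes called by edgeR and the 3 small MAF genes were not among them. As these values served to choose the family, nothing is read from that count.

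**Figure D1:**
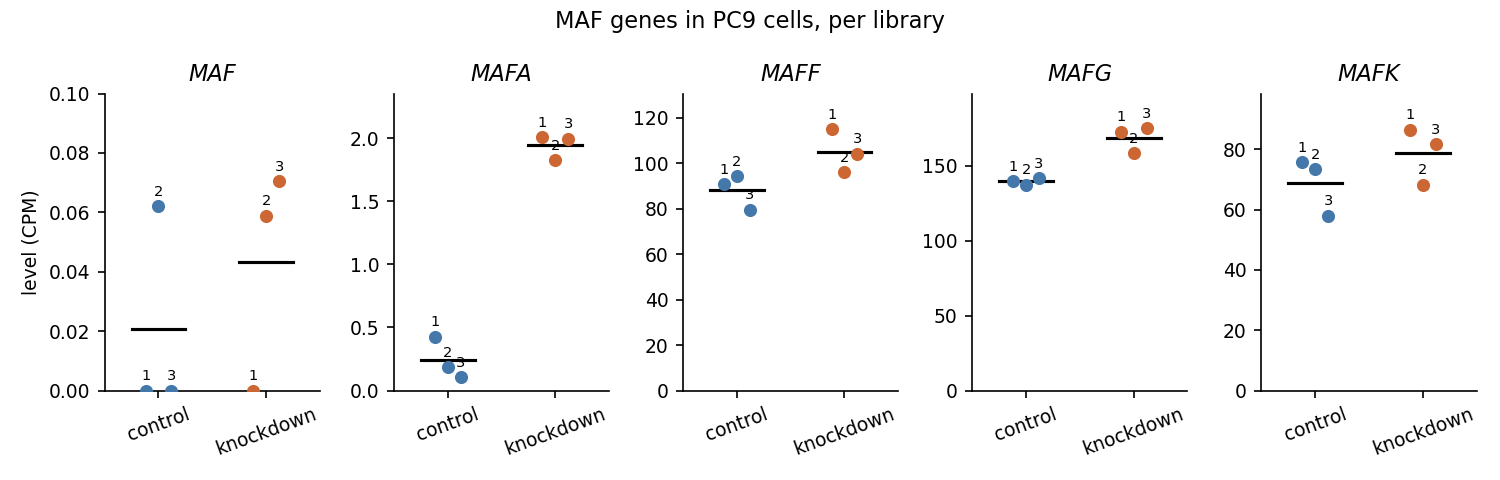
Level of each MAF gene in CPM (counts scaled to the library total; vertical axis, linear and starting at 0, with its own range per gene) in 3 control and 3 knockdown libraries; points are libraries with their replicate number and lines are group means. MAFA lay between 1.83 and 2.01 CPM in the knockdown libraries and at or below 0.428 CPM in the controls, whereas the MAFK groups overlapped.

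MAF (ENSG00000178573; chromosome 16, 79585843 to 79600714, minus strand), the founding member, is known from T helper cells, macrophages, the lens and myeloma. Its counts in replicates 1 to 3 were 0, 2 and 3 after knockdown and 0, 2 and 0 in the control. With 5 counts against 2 over the groups it did not pass the filter, and no fold change is given. MAFTRR, a long noncoding RNA of the MAF locus, had 0 counts in all libraries, as had LINC01229, LINC01228 and LINC01230.

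MAFA (ENSG00000182759; chromosome 8, 143419182 to 143430406, minus strand) is best known as an activator of the insulin gene in pancreatic beta cells. Its counts in replicates 1 to 3 were 76, 62 and 85 after knockdown and 16, 6 and 4 in the control. In CPM, which are counts scaled to the effective library total, this was 2.01, 1.83 and 1.996 against 0.428, 0.186 and 0.105. The groups were far apart, and the 3 knockdown libraries lay close together at 1.94 ± 0.102 CPM (SD, n = 3). The control libraries were at 0.240 ± 0.168 CPM (SD, n = 3), a coefficient of variation of 70.2%. Its fitted log2 fold change was 3.00 ± 0.45 (SE), which 0.767% of tested genes exceeded. The 16 counts of control library 1 weighed on this value, which was 3.73 without that library. Of the 13 alternative settings that could fit it, MAFA was among the called genes in 7. The settings in which it was not called included those without any 1 of knockdown libraries 1, 2 and 3 or control libraries 2 and 3. As its values served to choose it, these calls are a description and no test. MAFA passed the filter through its knockdown libraries alone, so a difference was built into its being fitted. Genes of low abundance stood above 0 in general: over the 5463 tested genes under 1 log2 CPM the median was 0.29 in log2 fold change, against 0.05 for all tested genes. The part of that shift in the MAFA value was not tested.

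The per-length values of MAFA need care in 1 library. Its deposited TPM (a scale that also divides by transcript length) was 1.48, 1.46 and 2.63 in the knockdown libraries. The high value of library 3 is not seen in CPM. Its deposited FPKM corresponds to a length of 1787 bases there, if the gene count total is the divisor, against 2986 to 3115 bases in the other 5 libraries. MAFA-AS1, which lies 0.03 kb from MAFA on the opposite strand, had 15, 3 and 5 counts after knockdown and 2, 0 and 2 in the control. It was too low to be tested, and no source used here says whether counting used strand.

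NRL, a large MAF gene known from the retina, was not among the 5 chosen. It was at 1.60 ± 0.695 CPM after knockdown and 1.61 ± 0.248 CPM in the control (SD, n = 3), with overlapping groups (edgeR adjusted p 0.994). In the knockdown libraries NRL thus stood near the level of MAFA, while in the control every NRL value lay above every MAFA value.

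Among the small MAF genes, MAFF (ENSG00000185022; chromosome 22, 38200767 to 38216511, plus strand) is the one known to be induced by stress and inflammatory signals. It was at 115, 96.1 and 104 CPM after knockdown and at 90.8, 94.4 and 79.7 CPM in the control, in replicate order. The groups did not overlap, but knockdown library 2 and control library 2 nearly met. The means were 105 ± 9.45 and 88.3 ± 7.66 CPM (SD, n = 3), or 0.25 ± 0.13 (SE) in log2 fold change. Without knockdown library 1, the highest of the 6, it was 0.14.

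MAFG (ENSG00000197063; chromosome 17, 81918270 to 81927714, minus strand), a widely expressed partner of NFE2L2, had the highest counts of the family. Its level was 173, 158 and 175 CPM in the knockdown libraries and 140, 137 and 142 CPM in the controls. All knockdown libraries lay above all controls, which were close together. The fitted difference was 0.27 ± 0.11 (SE) in log2 fold change. MAFK (ENSG00000198517; chromosome 7, 1530714 to 1543043, plus strand) encodes the small subunit of the erythroid factor NF-E2. It was at 86.6, 68.3 and 81.7 CPM after knockdown and at 75.7, 73.4 and 57.9 CPM in the control. Here the groups overlapped, since knockdown library 2 was below control libraries 1 and 2. The fitted difference was 0.19 ± 0.15 (SE) in log2 fold change, and it was 0.08 without knockdown library 1 or without control library 3.

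In all, CPM were higher in every knockdown than in every control library for MAFA, MAFF and MAFG, 3 of the 4 members fitted. The same held for 13.4% of all tested genes. The members were chosen with these values known, so nothing is read from this count. Of all tested genes, 29.6% had a higher log2 fold change than MAFF, 27.8% a higher one than MAFG and 34.7% a higher one than MAFK. The small MAF genes thus stood in the upper part of the distribution, at no extreme of it.

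Start site sequences are shown for the 3 of 5 members with an entry in RefSeq's promoter table, to set the well-expressed MAFF and MAFG beside the silent MAF. Each run holds the 250 bases before the start site on GRCh38.p14, 5′ to 3′ on the strand of the gene. Capitals mark matches, on either strand, to TGACGTCA (the cAMP response element), TGANTCA (the AP-1 site), TGACNNNGC (the antioxidant response element core), TGCTGAC (the core of a MAF site) or CACGTG (the E-box); TGACNNNGC and TGCTGAC can overlap other motifs that hold TGAC. The stretches lie at chr22:38201744-38201993 (plus strand) for MAFF, chr17:81927736-81927985 (minus strand) for MAFG and chr16:79600738-79600987 (minus strand) for MAF.
MAFF: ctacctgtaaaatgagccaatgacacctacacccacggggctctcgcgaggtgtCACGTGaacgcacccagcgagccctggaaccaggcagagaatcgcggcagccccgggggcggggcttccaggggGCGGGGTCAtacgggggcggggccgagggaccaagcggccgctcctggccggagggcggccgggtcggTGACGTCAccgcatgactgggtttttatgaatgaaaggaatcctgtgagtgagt
MAFG: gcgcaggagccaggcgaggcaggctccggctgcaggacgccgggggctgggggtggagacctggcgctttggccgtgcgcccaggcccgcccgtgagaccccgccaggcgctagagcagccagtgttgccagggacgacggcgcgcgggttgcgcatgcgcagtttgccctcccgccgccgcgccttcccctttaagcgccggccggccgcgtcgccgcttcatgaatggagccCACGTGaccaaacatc
MAF: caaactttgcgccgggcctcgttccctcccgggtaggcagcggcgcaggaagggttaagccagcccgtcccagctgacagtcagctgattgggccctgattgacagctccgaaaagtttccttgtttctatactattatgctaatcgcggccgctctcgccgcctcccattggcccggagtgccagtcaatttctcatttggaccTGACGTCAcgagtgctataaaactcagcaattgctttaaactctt

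The 250 bases before the MAFF start held an E-box starting at position -196, an antioxidant response element core at -122 and a cAMP response element at -54, counted from the start site. MAFG held an E-box at -16 and MAF a cAMP response element at -45. A further MAFF start in the table, from chr22:38202770-38203019, held an E-box at -81. Over the 300 bases that the table gives for each of its 35116 start sites, 1.85% held a cAMP response element, 7.26% an E-box, 13.4% an antioxidant response element core, 7.71% an AP-1 site and 4.19% the MAF site core. The cAMP response element was thus present at a well-expressed member and at a silent one. These matches are letters in a window and show no binding.

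Per unit of transcript length the order of the small MAF genes was the same in every library: MAFF above MAFG above MAFK. In the control the deposited TPM was 60.1 ± 5.87 for MAFF, 43.9 ± 3.70 for MAFG and 33.3 ± 5.43 for MAFK (SD, n = 3). The ranges of these 3 genes did not overlap within a group, although the lowest MAFG value of the control, 39.7 TPM, and the highest MAFK value, 39.1 TPM, nearly met. After knockdown they were at 82.7 ± 1.86, 65.9 ± 4.83 and 44.8 ± 4.21 TPM (SD, n = 3). On this scale, unlike in CPM, the MAFK groups did not overlap: the controls ran from 28.4 to 39.1 and each knockdown library lay above them, up to 47.7. TPM were higher in every knockdown than in every control library for 27.0% of all tested genes. NRL (0.789 to 2.95 TPM) and MAFA (1.46 to 2.63 TPM) overlapped in the knockdown libraries, both far below the small MAF genes, and MAF was at 0.0201 TPM or less in each library. MAFG thus came first in CPM, which ignore length, and second to MAFF in TPM.

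Summed over the 3 small MAF genes, TPM was 192, 188 and 201 after knockdown and 152, 132 and 128 in the control, in replicate order. All knockdown sums lay above all control sums, at a ratio of 1.41. On this scale the median log2 ratio over all tested genes was itself 0.28. Relative to that median, the log2 ratio was 0.19 for MAFF, 0.31 for MAFG and 0.15 for MAFK, and the summed CPM ratio was 1.19. The make-up of the sum varied little: MAFF gave 42.8% ± 0.850 of it after knockdown and 43.8% ± 1.56 in the control (SD, n = 3). MAFG gave 34.1% ± 2.16 and 32.1% ± 2.88, and MAFK 23.2% ± 1.78 and 24.2% ± 1.80 (SD, n = 3). The shares of each gene overlapped between the groups. The length that the deposited FPKM imply for MAFG was 6322, 5641 and 5869 bases after knockdown and 6301, 6393 and 6404 in the control. A shorter length gives a higher TPM for the same count, and its part in the MAFG values was not tested.

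**Figure D2:**
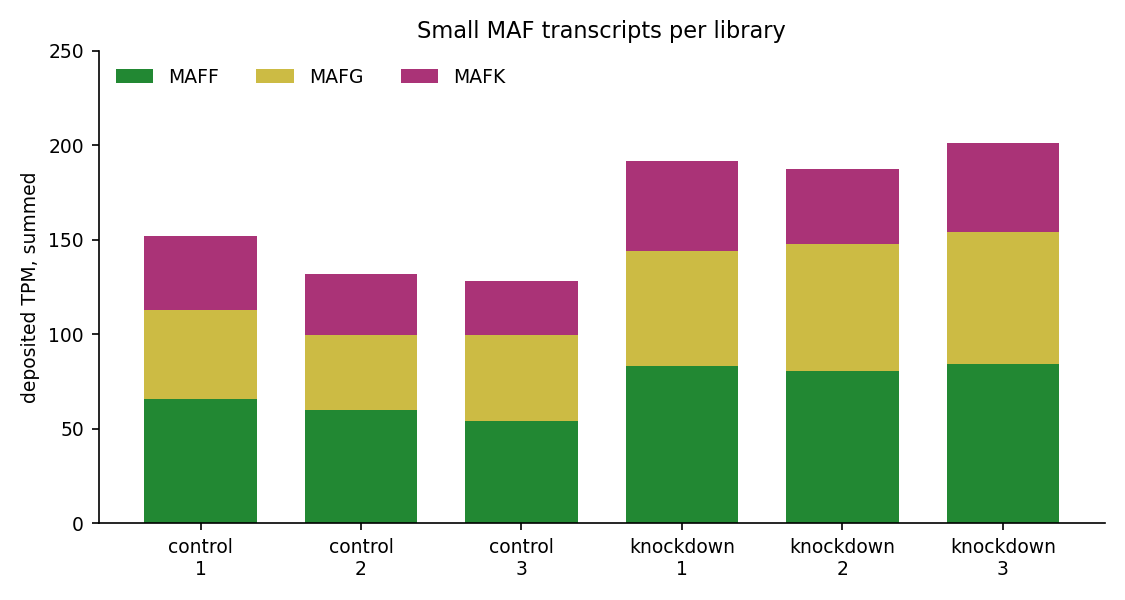
Deposited TPM (vertical axis, linear from 0) of MAFF, MAFG and MAFK stacked for each control and knockdown library (horizontal axis). The stacks reach 128 to 152 TPM in the control and 188 to 201 TPM after knockdown, and MAFF is the largest part in each.

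The question of which dimer partners accompany these small MAF genes was put to the CNC and BACH genes. Of 7 genes tested (the partners and KEAP1, the adaptor that marks NFE2L2 for degradation), 0 passed edgeR's test in either direction, and 0 did at an unadjusted p of 0.05, with DESeq2 or with limma-voom. Their median log2 fold change was 0.22. NFE2L3, a CNC factor, was at 101 ± 9.49 against 103 ± 3.74 CPM (SD, n = 3). NFE2L2 was at 67.1, 85.6 and 45.1 CPM after knockdown and at 65.3, 29.3 and 74.8 CPM in the control, in replicate order. The groups overlapped, and control library 2 was the lowest. The same library was lowest for NFE2L1, a CNC factor that induces proteasome genes, at 39.0 CPM against 105 to 139 CPM in the other 5. BACH1, a heme-regulated repressor, stood at 62.2 CPM in knockdown library 2 and at 26.0 to 37.2 CPM in the others. BACH2, a related repressor of lymphocytes, was low, at 1.41 ± 0.641 against 0.601 ± 0.367 CPM (SD, n = 3). Within groups the small MAF genes had coefficients of variation of 1.55% to 14.0%, while NFE2L2 had 30.8% and 42.5% and NFE2L1 reached 50.9% in the control. KEAP1 (88.1 against 83.9 CPM) and the hematopoietic factor NFE2 (8.51 against 9.32 CPM) overlapped between groups as well.

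MAF proteins can also pair with AP-1 proteins of the FOS and JUN families. Of 7 AP-1 genes 0 passed edgeR's test, 3 had an unadjusted p under 0.05, and DESeq2 called 2 while limma-voom called 0; the median log2 fold change was 0.04. The 2 called by DESeq2 were FOS and FOSB. FOSB was at 7.66 ± 1.04 against 3.93 ± 0.569 CPM (SD, n = 3; log2 fold change 0.97, edgeR adjusted p 0.0683). FOS was at 20.2 ± 4.33 against 11.7 ± 1.15 CPM (log2 fold change 0.79, edgeR adjusted p 0.112). Both were higher in every knockdown than in every control library, as were 13.4% of all tested genes. JUND was lower in every knockdown than in every control library, as were 10.8% of all tested genes. It was at 94.4 ± 9.56 against 118 ± 6.21 CPM (SD, n = 3; edgeR adjusted p 0.259). JUNB, FOSL1 and JUN had log2 fold changes of -0.03, 0.04 and -0.23 with overlapping groups.

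**Figure D3:**
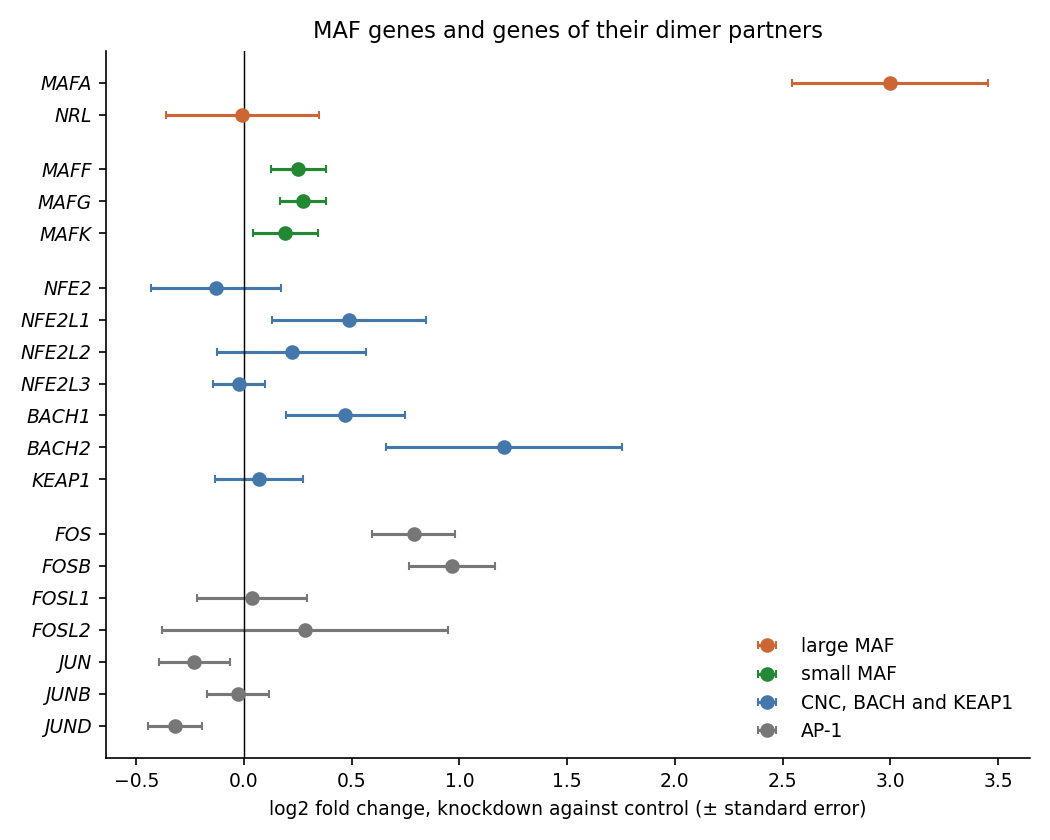
Fitted log2 fold change of knockdown against control (horizontal axis; bars are standard errors) for the 4 fitted members, NRL and the genes of their partners, with 3 libraries per group. MAFA (3.00) stands apart from the small MAF genes (0.19 to 0.27), and BACH2 and FOSL2 have wide errors.

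Genes with antioxidant response elements, which NFE2L2 or BACH1 bind together with a small MAF protein, were examined next. Of 30 such genes 0 passed edgeR's test, and 13 had an unadjusted p under 0.05, against 16.5% of all tested genes. DESeq2 called 1 (AKR1C3), against 3.69% of the genes to which it gave an adjusted p, and limma-voom 0. The median log2 fold change of the 30 genes was -0.18, against 0.05 for all tested genes. It was -0.30 without knockdown library 1 and -0.05 scaled by library size alone. Of the 30 genes 6 were above 0, against 55.9% of all tested genes. CPM were lower in every knockdown than in every control library for 12 of them, against 10.8% of all tested genes, and higher for 2, against 13.4%. In deposited TPM 2 were lower in every knockdown library (AKR1C3 and FTL), against 2.95% of all tested genes, and 4 were higher, against 27.0%. The median log2 ratio of TPM was 0.016 with 15 of 30 above 0, while the all-gene median was 0.28. The sign of the list's median thus turned with the scale, but it lay below the all-gene median on both scales. The 30 genes lay at a mean of 3.95 log2 CPM or more. By contrast, 5463 of all tested genes lay under 1 log2 CPM, with a median log2 fold change of 0.29. The part of abundance in the list's lower median was not tested. The aldo-keto reductase gene AKR1C3 was at 452 ± 25.2 against 638 ± 44.7 CPM (SD, n = 3; log2 fold change -0.50, edgeR adjusted p 0.0775), though near-identical AKR1C genes make their separate counts uncertain. FTL, the ferritin light chain gene, was at 4100 ± 380 against 5506 ± 583 CPM (SD, n = 3; edgeR adjusted p 0.135). HMOX1, a heme-degrading enzyme gene known as a main target of BACH1, stood at the other end with 51.4 ± 5.35 against 37.1 ± 2.76 CPM (SD, n = 3; log2 fold change 0.47, edgeR adjusted p 0.162).

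**Figure D4:**
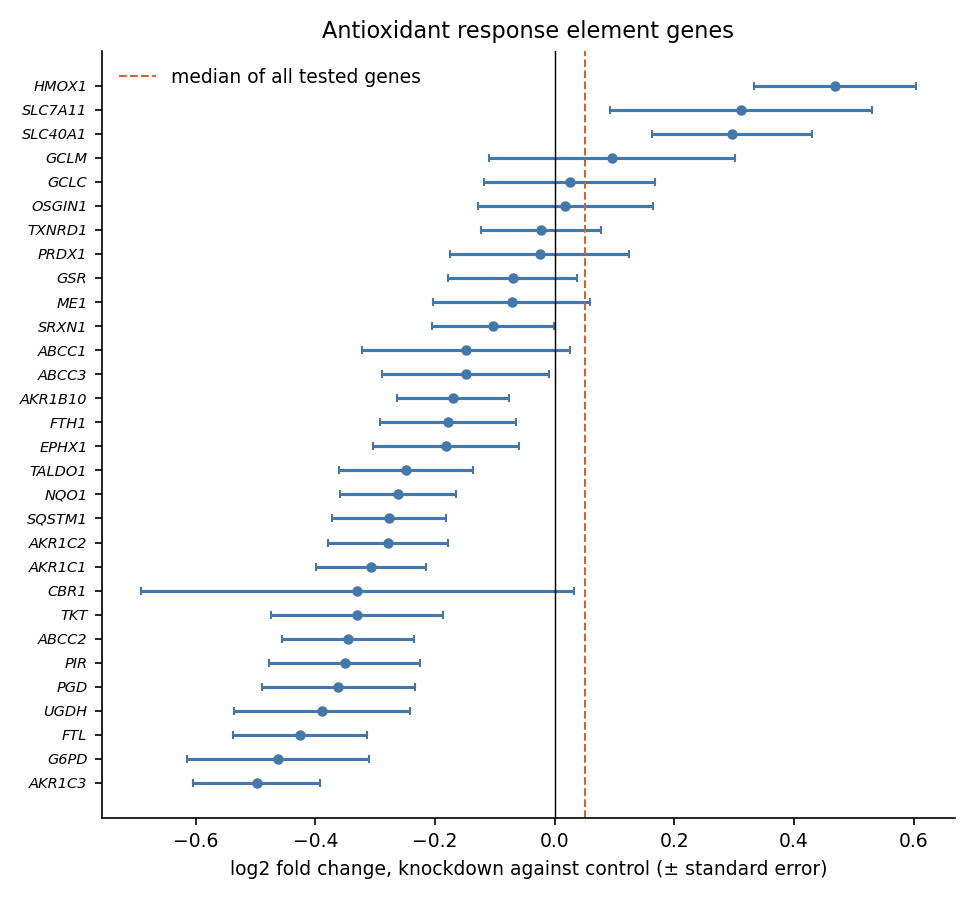
Fitted log2 fold change of knockdown against control (horizontal axis; bars are standard errors, 3 libraries per group) for 30 genes with antioxidant response elements. The dashed line is the median of all tested genes (0.05), and 24 genes lie below 0 with AKR1C3 lowest (-0.50) and HMOX1 highest (0.47).

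Genes known as targets of large MAF proteins were mostly silent. Of 19 listed genes, 11 had 0 counts in every library, among them INS, the insulin gene, and CCND2, the cyclin D2 gene that MAF drives in myeloma. Only 5 could be tested, and 0 passed edgeR's test, DESeq2 or limma-voom, with 1 at an unadjusted p under 0.05. This was DEPTOR, an inhibitor of mTOR, at 17.9 ± 2.12 against 13.7 ± 0.732 CPM (SD, n = 3; log2 fold change 0.39, edgeR adjusted p 0.263). CRYAB, a lens crystallin gene, was at 0.767 ± 0.415 against 0.284 ± 0.265 CPM (SD, n = 3; edgeR adjusted p 0.325). Of 7 genes for kinases and ubiquitin enzymes that act on MAF proteins, 0 passed in any of these 3 tools and 2 had an unadjusted p under 0.05. GSK3A, a kinase gene, was at 62.7 ± 13.6 against 84.7 ± 5.71 CPM and the deubiquitinase gene OTUB1 at 63.0 ± 5.16 against 81.8 ± 0.528 CPM (SD, n = 3; edgeR adjusted p 0.267 and 0.187).

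Around the 5 MAF genes, 57 genes lay within 100 kb and 36 could be tested. edgeR called 0 of them, and 10 had an unadjusted p under 0.05, against 16.5% of all tested genes. DESeq2 called 1, against 3.69% of the genes to which it gave an adjusted p, and limma-voom 0. Beside MAFA, RHPN1 and ZC3H3 had log2 fold changes of 0.01 and -0.18. Near MAFF, the antisense gene AL022322.2 was low, at 1.64 ± 0.117 against 0.708 ± 0.290 CPM (SD, n = 3; edgeR adjusted p 0.153). PCYT2 beside MAFG, and INTS1 and PSMG3 beside MAFK, had log2 fold changes of -0.11, -0.01 and -0.11. Of the 20 tested neighbours of MAFG 4 were above 0 in log2 fold change, and of all 36 neighbours 12, against 55.9% of all tested genes. The gene called by DESeq2 was TMEM184B, 2.78 kb from MAFF, at 189 ± 43.0 against 351 ± 31.0 CPM (SD, n = 3; edgeR adjusted p 0.0583). MAFG-AS1, which starts 0.12 kb from MAFG on the opposite strand, was at 4.71 ± 1.59 against 3.99 ± 0.449 CPM (SD, n = 3; edgeR adjusted p 0.707). The span of MAFF overlaps PLA2G6 by 4924 bases, that of MAFG overlaps SIRT7 by 3054 and AC145207.8 by 1613, and that of MAFK overlaps TMEM184A by 809, so some reads of these members could have been shared.

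The genes most like each member were found by the root mean square difference between log2 CPM profiles, centred on their mean over the 6 libraries, among genes of at least 1 log2 CPM. The group difference is part of each profile, so genes found this way share the rise of a member by construction. For MAFA, which at a mean of -0.46 log2 CPM lay below that floor itself, they were the interferon-stimulated gene OAS2 (difference 0.45), the growth factor receptor gene PDGFRB (0.45) and TIAF1 (0.55). For MAFF they were the kinase gene PIM1 (0.031), SOWAHB (0.042) and CHMP6 (0.046). UCA1, ARNTL and MKRN3 were nearest to MAFG (0.038 to 0.041), and SUGP2, C19orf54 and CYR61 to MAFK (0.034 to 0.046). MAFF and MAFK differed from each other by 0.076, and MAFG from MAFK by 0.151.

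PC9 identity and other cell types were checked because MAF is also expressed by immune cells. EPCAM and the keratin genes KRT7, KRT8, KRT18 and KRT19 were abundant in all libraries, with the 8 epithelial and carcinoma markers summing to 11060 to 14070 CPM after knockdown and 13040 to 14460 CPM in the control. The lung lineage factor NKX2-1 was at 0.791 against 0.151 CPM. Immune markers summed to 89.3 to 116 CPM after knockdown and 84.8 to 98.5 CPM in the control, nearly all from CD68 and CSF1R, while 5 of 8 had a mean under 1 CPM; PTPRC was uneven, at 0.677 CPM in knockdown library 2, 0.428 CPM in control library 1 and at most 0.0786 CPM in the others. CD14, a monocyte marker, was at 4.04 ± 0.143 against 3.201 ± 0.0862 CPM (SD, n = 3; edgeR adjusted p 0.402). CD79A went the other way on average, at 0.255 against 0.406 CPM with overlapping groups. Stromal markers summed to 41.1 to 61.0 against 40.1 to 47.0 CPM, nearly all from COL1A1, with LUM at 0 counts and COL1A2 and PDGFRA near 0. Endothelial markers summed to 31.4 to 40.6 against 20.8 to 37.3 CPM. The largest part was CDH5, at 22.4 against 20.8 CPM on average with overlapping groups. PECAM1 was at 12.2 against 9.81 CPM and VWF at 0.348 against 0.183 CPM on average, and KDR was near 0. Only 4 of 8 immune, 3 of 6 stromal and 3 of 4 endothelial markers could be tested. Of these PDGFRB alone passed edgeR's test, against 1.17% of all tested genes. It was at 6.38 ± 1.81 CPM after knockdown and 0.835 ± 0.183 CPM in the control (SD, n = 3, edgeR adjusted p 0.00502). CPM were higher in every knockdown than in every control library for 2 tested immune (CD14, CSF1R), 2 stromal (PDGFRB, DCN) and 2 endothelial markers (PECAM1, VWF). The same held for 13.4% of all tested genes, and 0 markers of these lists were lower in every knockdown library. DCN was at 1.32 ± 0.0694 against 0.757 ± 0.257 CPM (SD, n = 3, edgeR adjusted p 0.264). Whether other cells play a part in the MAFA values was not tested.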

How the data were processed

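The deposited table holds, for each gene and each of 6 libraries, a whole-number count, TPM and FPKM. Per the labels' protocols the authors sequenced on an Illumina platform, checked quality, mapped reads and made the counts per gene. No source used here names the aligner, counter or strand setting. TPM and FPKM were computed and deposited by the authors; the length behind them varies between libraries. The submitters' processing notes name hg19, but 96.84% of 57836 gene spans, those of all 5 members included, equal GENCODE 29 on GRCh38, so coordinates are on GRCh38.

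Counts were filtered (filterByExpr, minimum count 10), TMM-scaled and tested with edgeR 4.0.16 in R 4.3.3 (quasi-likelihood, Benjamini-Hochberg over 19040 genes, threshold 0.05). Standard errors were derived from the fold change and F statistic. Alternatives were other scalings and filters, DESeq2 1.42.0, limma-voom 3.58.1, a replicate block and leaving out each library. The fits were tested on simulated data. Libraries of a group differed by a chi-square of 29.9 to 74.0 per degree of freedom, so none were counted as 1. The members and lists were chosen with earlier results of these data known. The text names the members, NRL, all partner and AP-1 genes, up to 4 genes past the test (otherwise the 2 of lowest p) per other list, the nearest tested neighbours and those past the test, and the 3 genes most like each member, with a few more (MAFA-AS1, HMOX1, overlapping genes and markers) chosen after their values were seen; a result that falls under the rule is not reported here.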

Additional observations from a re-analysis of the deposited data

How the results depend on the processing

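Against 223 genes past the test, 147 were called with no filter, 25 among genes of at least 1 CPM in all 6 libraries, 701 by DESeq2 (483 higher), 34 with the replicate number as a block, and 64 to 114 with 1 library left out. Deviations of libraries that share a number correlated at 0.01, -0.1 and -0.03, so replicate numbers gave no pairing. Of the MAF network lists 0 genes were called by edgeR; library size only gave 1 (FOSB) and DESeq2 3 (FOS, FOSB and AKR1C3). Of the neighbours 0 were called, DESeq2 gave 1, and leaving out 1 library gave 0 to 1, the latter (ARHGDIA, lower) without knockdown library 1. With 1 library left out the log2 fold change of MAFA ran from 2.63 to 3.73, of MAFF from 0.137 to 0.301, of MAFG from 0.21 to 0.305 and of MAFK from 0.076 to 0.274. MAFA could not be fitted at 1 CPM in all libraries. Scaling by library size alone moved the all-gene median from 0.05 to 0.175 and MAFG to 0.396. As a log2 ratio of deposited TPM, chosen after seeing the data, MAFF had 0.461, MAFG 0.587 and MAFK 0.43. The antioxidant response element genes had a median of 0.016 against -0.18, where the all-gene median was 0.28 in TPM and 0.05 in the main fit. The summed small MAF ratio of 1.41 was 1.32 with FPKM and 1.36 to 1.49 with 1 library left out. The 4 fitted members kept their direction in every setting that could fit them. Uncalled genes did not all do so: NFE2L2 ran from -0.092 to 0.474, KEAP1 from -0.125 to 0.262, FOSL2 from -0.606 to 1.31, FOSL1 from -0.158 to 0.271, JUNB from -0.22 to 0.094, NFE2 from -0.405 to 0.16, NFE2L3 from -0.112 to 0.101 and NRL from -0.381 to 0.268. What causes these shifts was not tested. The MAFA fold rests on 4 to 16 counts per control library.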

Other observations

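FOSL2, an AP-1 gene, was at 164 CPM in knockdown library 2 and 143 CPM in control library 3, and at 29.3 to 50.4 CPM in the other 4 libraries. The high libraries lie in different groups, and its fitted difference was 0.28 ± 0.665 (SE) in log2 fold change. Neither library stood apart in the same way for the small MAF genes. In CPM, knockdown library 2 was the lowest of its group for MAFF, MAFG and MAFK, and control library 3 for MAFF and MAFK. In deposited TPM the lowest knockdown library for MAFG was library 1.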
